A study of Mus musculus with 8 samples.

Results

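The regions described here are stretches of open chromatin that lie far from every gene in mouse marrow progenitors. A region belonged to them if its centre was more than 100 kb from the extent of every annotated gene, and 1982 of the 160978 regions in the authors' full table did, or 1.23%. Accessibility had been measured by ATAC-seq, a method that lets a transposase insert adapters where DNA is open, in cells sorted as cKit+ Lymph- Ery-, which enriches for stem cells and progenitors. The labels give 8 libraries, 4 of acute myeloid leukemia (AML) and 4 normal. Of the AML libraries, 2 were URE-delta/+;Tet2+/- and 2 were URE-delta/+;Tet2-/-. The normal libraries were 1 each of URE-delta/+;Tet2+/+, URE+/+;Tet2+/-, URE+/+;Tet2-/- and URE+/+;Tet2+/+. The URE is the upstream regulatory element of Spi1, the gene of the myeloid transcription factor PU.1, and Tet2 encodes an enzyme that oxidises 5-methylcytosine. Every AML library carried the URE deletion together with loss of Tet2 and no normal library carried both, so leukemia and the combined genotype cannot be told apart.

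Each region carried 1 log2 fold change, leukemic over non-leukemic cells with low PU.1, with an adjusted p-value from the authors. The sources used here do not say which libraries made up each side. Values of single libraries were not used, so that the depth and the spread between mice are unknown for every value below, and counts are over regions, which are not replicates. By the lanes in the library names, lane 8 held 2 normal libraries and 0 AML libraries, and its part in any value was not tested. The lowest log2 fold change of the whole table, on chromosome 2, lay 1.21 kb from Spi1, at -7.30 (adjusted p = 1.26e-06) per the authors' deposited table. Of 7 progenitor marker genes, 5 had a region within 1 kb of a gene end, and Myb and Erg had none by this rule. The log2 abundances of the 5 ran from 0.095 at Flt3 to 3.26 at Kit, with a median of 1.66. The B-cell, T-cell and erythroid markers, 4 each, all had one, at medians of -1.49, 0.42 and -0.51. The 4 neutrophil markers ran from 0.40 to 2.20 with a median of 1.69, close to that of the progenitor markers. Of the 4 stromal and endothelial markers 2 had a region. The part of lymphoid, erythroid, neutrophil and stromal cells in the values below was not tested.

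Long stretches without genes often hold enhancers, DNA elements that act on a gene over distance by folding of the chromosome, and sites where CTCF anchors such folds. In blood, genes of stem cell receptors and transcription factors are known for enhancers that lie far outside the gene. Distance alone does not name the gene a region acts on, and no such link was measured here, so the genes named below are neighbours only.

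Sequences of the regions themselves were not used here. The promoters of Cxcr4 and Kit, the genes whose distant neighbourhoods are described at length below, are shown because each is covered by a region of open chromatin, against which the distant regions of the same neighbourhood can be read. Each is 250 bases before to 50 after the transcription start, from RefSeq, GRCm38.p6, at chr1:128592250-128592549 on the minus strand and chr5:75574737-75575036 on the plus strand, 5′ to 3′.
Cxcr4: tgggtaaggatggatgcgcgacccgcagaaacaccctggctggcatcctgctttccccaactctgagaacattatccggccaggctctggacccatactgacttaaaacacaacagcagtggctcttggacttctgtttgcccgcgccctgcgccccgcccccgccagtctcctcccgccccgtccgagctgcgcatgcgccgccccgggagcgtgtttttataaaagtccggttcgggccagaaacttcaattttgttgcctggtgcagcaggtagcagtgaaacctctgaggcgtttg
Kit: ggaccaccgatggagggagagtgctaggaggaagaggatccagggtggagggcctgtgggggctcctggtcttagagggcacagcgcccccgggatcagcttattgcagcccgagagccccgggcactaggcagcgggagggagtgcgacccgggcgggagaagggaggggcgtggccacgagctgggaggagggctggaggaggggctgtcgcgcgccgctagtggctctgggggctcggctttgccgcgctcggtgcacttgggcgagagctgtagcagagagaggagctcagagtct
Both strands were searched for the E-box CACCTG, which 20.2% of 32851 such windows hold, for the GATA-type motif written AGATAAG, held by 3.04%, and for the AP-1 motif TGANTCA, held by 7.81%. Neither window held a match, so no letters are in capitals. These letters say nothing about binding of the factors. The region over the Cxcr4 promoter stood at a log2 fold change of 0.54 (adjusted p = 0.0773) and that over the Kit promoter at -0.19 (adjusted p = 0.913) per the authors' deposited table.

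Regions far from genes were weakly open, narrow and isolated. Their median log2 abundance, the authors' measure of read level, was -1.95, with quartiles of -2.38 and -1.35, against -1.17 over all regions. Their median width was 279 bp, against 334 bp over all regions. The nearest other region lay a median of 10.6 kb away, against 3.06 kb over all regions, and 51.1% of far regions had no other region within 10 kb, against 14.0% of all. The median distance to the nearest gene was 144.5 kb, with quartiles of 118.5 and 191.0 kb, and to the nearest protein-coding gene 315.6 kb. The nearest gene was a pseudogene for 666 far regions, a long non-coding RNA gene for 634 and a protein-coding gene for 404. Just inside the threshold stood regions at 100.02 kb from Smim20 and 100.05 kb from Gm6227, with log2 fold changes of -2.63 and -0.48 per the authors' deposited table. Just outside it stood regions at 99.97 kb from Mpdz and 99.93 kb from Mir680-3, at -0.37 and 0.67 per the authors' deposited table.

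Few far regions changed in leukemic cells when counted over all levels of abundance, and gains and losses were near equal in number. At the authors' threshold, an adjusted p under 0.001, 25 of 1982 far regions changed, against 2.46% of all 160978. Of the 1982, 13 rose (0.656%) and 12 fell (0.605%), against 1.24% that rose and 1.22% that fell of all regions. At an adjusted p under 0.05 it was 72 gains (3.63%) and 94 losses (4.74%), against 7.98% and 9.21% of all regions. An adjusted p over 0.9, the authors' rule for unchanged, held for 285 far regions (14.4%), against 11.9% of all. The median log2 fold change of far regions was 0.093, with quartiles of -0.54 and 0.61, against 0.017 over all regions with quartiles of -0.71 and 0.60. At the authors' threshold the order of the shares turned round among the more open regions. With a log2 abundance of at least -1, 3.20% of 344 far regions rose and 3.49% fell, against 2.44% and 2.65% of all 73973 such regions. Weakly open regions were seldom called at any distance. In the lowest of 5 equal classes of abundance, which held 753 far regions, 0 far regions and 1 of all 32196 regions were called.

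Abundance split the far regions into parts of opposite direction. The 753 and 613 far regions of the 2 lowest classes had median log2 fold changes of 0.17 and 0.26, against 0.038 and 0.025 for all regions of those classes. In the next classes up the far medians were -0.12 over 374 regions and -0.44 over 165, against -0.022 and 0.022 for all. Regions 10 to 100 kb from a gene leaned the same way in these classes, with medians of -0.17 and -0.30. In the higher of these classes 20.9% of them had a loss at an adjusted p under 0.05, against 18.2% of far regions. The 77 far regions of the highest class, with a log2 abundance of 0.45 or more, had a median of -1.06, with quartiles of -1.94 and -0.21, against 0.0052 over all 32196 regions of that class. All 12 losses lay in this class, 15.6% of its far regions against 5.26% of its regions overall. The 13 gains were spread over 4 classes, with 4 in the highest (5.19%, against 2.58% of all) and 7 in the next (4.24%, against 2.61%).

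**Figure D1:**
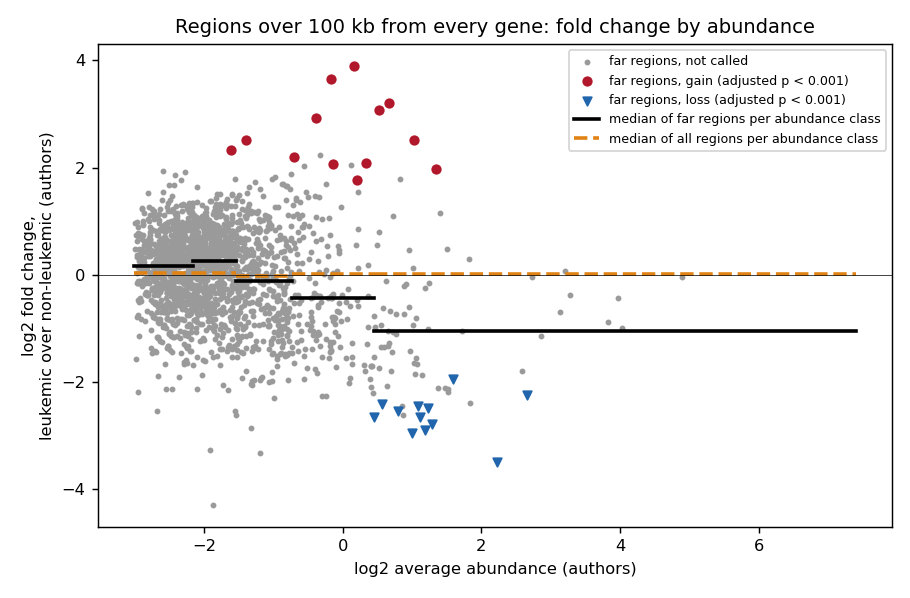
The authors' log2 fold change (vertical axis) against log2 average abundance (horizontal axis) for the 1982 regions over 100 kb from every gene, with the 13 gains and 12 losses coloured and the median of far and of all regions drawn for each of 5 equal abundance classes. The far median falls to -1.06 in the highest class while that of all regions stays near 0.

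Among the most abundant regions, lower accessibility in leukemic cells was more frequent beyond 10 kb from genes, and most frequent beyond 100 kb. Regions inside genes and up to 10 kb away had shares of losses close to each other, and losses outnumbered gains there too. At an adjusted p under 0.05, 36 of the 77 far regions (46.8%) had a loss and 7 (9.09%) a gain. Of the 2555 regions of the same class 10 to 100 kb from a gene, 32.3% had a loss and 13.2% a gain. Up to 10 kb from a gene it was 19.2% and 14.0% of 6969 regions, and inside genes 20% and 13.3% of 22595. The median log2 fold change was -1.06 over 100 kb, -0.49 from 10 to 100 kb, 0.098 up to 10 kb and 0.018 inside genes. Of the 77 far regions 63 stood below 0 (81.8%), against 61.8%, 46.5% and 49.4% in the nearer classes in the same order. The median abundance of the class was lower far from genes, at 1.02 against 1.57 inside genes, while the median widths were alike at 877 and 850 bp. The abundance averages the libraries compared, so that these classes are not independent of the fold. No test over regions was made.

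The 77 regions lay in 54 stretches between genes on 18 chromosomes, and the shift was not carried by a few of them. Without chromosomes 2 and X, which had the lowest medians of all regions, 74 remained with a median of -1.06, against 0.060 for all regions of the class there. With 1 region for each stretch, the most abundant, the median over 54 was -0.96 and 21 had a loss at an adjusted p under 0.05. Without the 5 stretches that held several changed far regions it was -1.0 over 61. These settings were chosen after the data were seen.

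**Figure D2:**
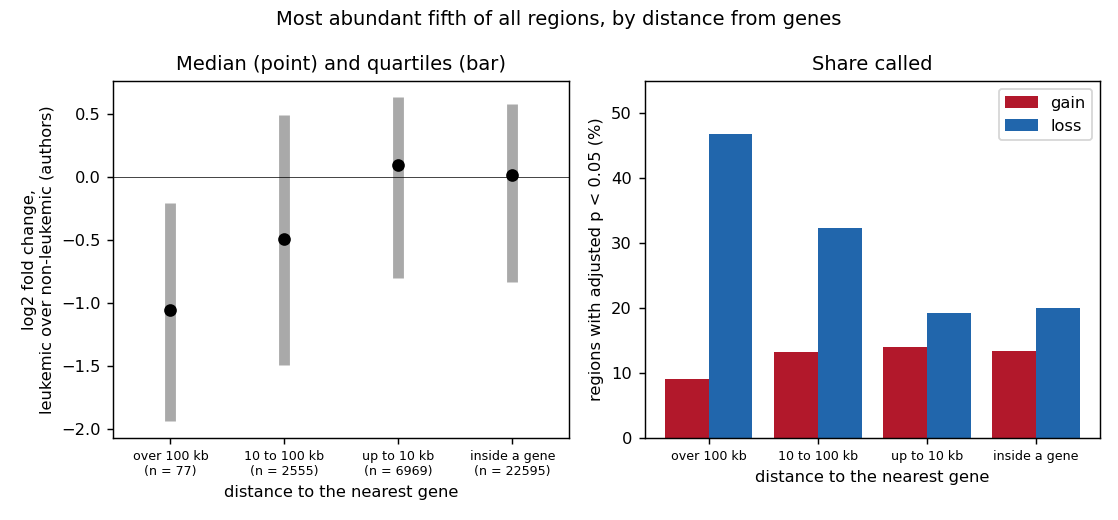
The most abundant of 5 equal classes of all regions, split by distance to the nearest gene. On the left, points are medians and bars quartiles of the authors' log2 fold change, and on the right, bars give the percent of regions with an adjusted p under 0.05. Losses reach 46.8% over 100 kb from genes against 20% inside them.

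The Cxcr4 neighbourhood held the deepest loss among the changed far regions. Cxcr4 encodes the receptor for the chemokine CXCL12, which holds stem cells and immature neutrophils in the marrow. The region at chromosome 1, 128723899 to 128725094, 132.2 kb from Cxcr4, stood at a log2 fold change of -3.49 (adjusted p = 3.34e-05) per the authors' deposited table. Its neighbour at 128722007 to 128722407 stood at -2.55 (adjusted p = 3.08e-04) per the authors' deposited table. The 2 are 2.29 kb apart and were the only ones of the 16 far regions between Cxcr4 and Gm23056 to fall at the authors' threshold. The next lowest, starting at 128746514, stood at -2.46 (adjusted p = 0.00158) per the authors' deposited table, just short of it. Of the 16, 12 were below 0, the median was -0.88 and 0 rose.

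Up to 50 kb from Cxcr4, in the same stretch, most values lay on the other side of 0. The 14 regions up to 50 kb from the gene had a median of 0.61, with 10 above 0. Of these 1 rose, and 6 had gains and 1 a loss at an adjusted p under 0.05. The 10 regions from 50 to 100 kb had a median of -0.22, with 7 below 0, and 0 gains and 1 loss at that level. The 11 regions within 100 kb of Gm23056 had a median of -0.20, with 0 gains and 1 loss at that level. The strongly open far regions starting at 128712480 and 128704807, with log2 abundances of 3.82 and 2.85, stood at -0.89 (adjusted p = 0.113) and -1.14 (adjusted p = 0.0401) per the authors' deposited table. The 50 kb bounds were chosen after the data were seen, and the difference between the parts was not tested.

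Between Smim20 and Rbpj another pair of adjacent regions fell. Smim20 encodes a small mitochondrial protein of cytochrome c oxidase assembly, and Rbpj the DNA-binding factor of Notch signalling. The region from 53401090 to 53401349 on chromosome 5, 122.7 kb from Smim20 and 154.6 kb from Rbpj, stood at -2.90 (adjusted p = 1.84e-04) per the authors' deposited table. Its neighbour 1.56 kb away, from 53402435 to 53403129, was the more open of the pair with a log2 abundance of 2.66, and stood at -2.24 (adjusted p = 4.01e-05) per the authors' deposited table. Of the 10 far regions between Smim20 and Gm40304, 9 were below 0, from -2.90 to 1.13 with a median of -0.92 per the authors' deposited table. Of the others, that starting at 53378213 stood at -2.63 (adjusted p = 0.00858) and that at 53420719 at -1.67 (adjusted p = 0.00837) per the authors' deposited table. The 29 nearer regions of the same stretch had a median of -0.16, and an adjusted p under 0.05 held for 3 gains and 2 losses.

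Another pair of neighbours fell on chromosome 8, in the stretch between Arglu1, a gene of an RNA splicing regulator, and Fam155a. The region at 8972611 to 8973652 stood at -2.67 (adjusted p = 9.45e-04) and that at 8968978 to 8969891 at -2.44 (adjusted p = 3.86e-04) per the authors' deposited table. Next to them lay the widest of all far regions, 3324 bp from 8983190 to 8986514, at -2.11 (adjusted p = 0.0013) per the authors' deposited table. Of the 15 far regions between Gm39127 and 4933430N04Rik 14 were below 0, with a median of -1.07. The 1 above 0, starting at 8951292, stood at 0.23 (adjusted p = 0.792) per the authors' deposited table.

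Kit had the largest share of distant neighbours at an adjusted p under 0.05 among the blood regulator genes examined, though none of them passed 0.001. Kit encodes the receptor for stem cell factor, the surface protein by which these cells were sorted, and Kdr beside it a receptor for VEGF. The 10 far regions between Gm32558 and Kdr lay 135 to 173.8 kb from Kit and 102.4 to 141.1 kb from Kdr, and most were nearer to Kdr. All 10 were below 0, from -3.34 to -0.96 with a median of -1.51 per the authors' deposited table. Of these 7 had a loss at an adjusted p under 0.05. The lowest, at chromosome 5, 75800573 to 75800981, stood at -3.34 (adjusted p = 0.0018) per the authors' deposited table. The most open, at 75808522 to 75809318, with a log2 abundance of 1.52, stood at -2.18 (adjusted p = 0.00167) per the authors' deposited table. The 4 far regions on the other side of Kit, towards Pdgfra, had values of 0.73, 0.94, 1.39 and -0.63 per the authors' deposited table, and the third of these had an adjusted p of 0.0207.

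The part of that stretch within 100 kb of a gene leaned the same way, as did the nearer end of Kdr. Its 28 regions had a median of -0.64, and an adjusted p under 0.05 held for 5, all of them losses. Of these 1 fell, starting at 75744584, at -2.68 (adjusted p = 5.09e-04) per the authors' deposited table. The region from 75933225 to 75934190, at one end of Kdr, stood at -2.04 (adjusted p = 9.1e-04), and that at the other end at -0.42 (adjusted p = 0.411) per the authors' deposited table. Sorting on cKit took cells that carry the Kit protein from every mouse.

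The other 6 losses were each the only far region of their stretch called at an adjusted p under 0.001. On chromosome 1 the region from 125241487 to 125242046 was 151.1 kb from Actr3, the gene of an Arp2/3 actin complex subunit, and stood at -2.95 (adjusted p = 2.24e-04) per the authors' deposited table. On chromosome 18, 3666138 to 3667330, 150.3 kb from Bambi, the gene of a decoy receptor of TGF-beta signalling, the value was -2.78 (adjusted p = 1.66e-04) per the authors' deposited table. Between Lrig3 and Atp23 the region on chromosome 10 from 126501725 to 126502847 stood at -2.66 (adjusted p = 4.69e-04) per the authors' deposited table. That at chromosome 1, 142893191 to 142894466, 709.4 kb from Cdc73, stood at -2.49 (adjusted p = 4.78e-04) per the authors' deposited table. That at chromosome 5, 133142404 to 133143009, between Auts2 and Castor2, stood at -2.42 (adjusted p = 4.41e-04) per the authors' deposited table. The last, on chromosome 13 from 111043354 to 111045154, between Plk2 and Actbl2, stood at -1.94 (adjusted p = 7.76e-04) per the authors' deposited table; it ranks outside the 10 lowest and was named after its values were seen. The losses had a log2 abundance of 0.45 to 2.66 and a median width of 977 bp.

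Gains far from genes were narrower and less open than the losses, with a median width of 550 bp, against 977 bp, and log2 abundances from -1.61 to 1.35. The same held over all regions, where the 2002 gains had a median width of 346 bp and the 1961 losses 752 bp, at median log2 abundances of 0.18 and 1.43. The highest, on chromosome 15 from 31964854 to 31965937, between Atpsckmt, the gene of a mitochondrial methyltransferase, and the taste receptor gene Tas2r119, reached 3.90 (adjusted p = 9.32e-06) per the authors' deposited table. In the same stretch a region 14.8 kb away, at 31980053 to 31980359, stood at 2.52 (adjusted p = 4.93e-04) per the authors' deposited table. The 4 other far regions there ranged from -1.01 to 0.89, with adjusted p of 0.127 or more per the authors' deposited table.

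Chromosome 1 held a compact group of gains between the genes Slco6d1, an organic anion transporter gene, and Cntnap5b, a gene of the neurexin family. The regions at 98713004 to 98714136, 98720398 to 98721320 and 98724289 to 98724839 rose, with log2 fold changes of 2.51, 2.08 and 1.97 (adjusted p = 1.59e-04, 8.2e-04 and 3.02e-04) per the authors' deposited table. They lie 106.2 to 117.2 kb from the long non-coding RNA gene Gm7967. Between the second and the third of them the region starting at 98722523 stood at 1.79 (adjusted p = 0.00331) per the authors' deposited table. Of 10 far regions in the stretch 8 were above 0, and an adjusted p under 0.05 held for 6, all of them gains.

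**Figure D3:**
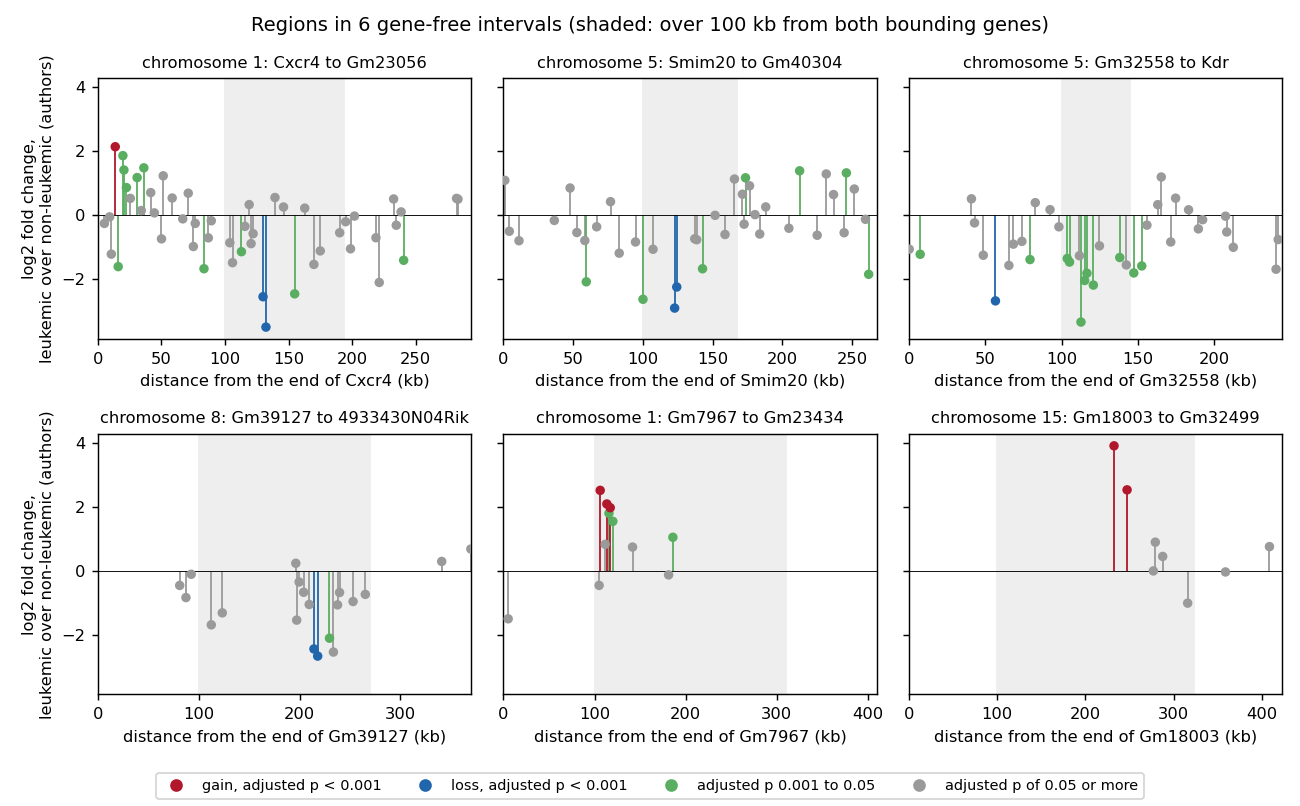
The authors' log2 fold change (vertical axis) of every region in 6 stretches between neighbouring genes, by distance from the left gene in kb (horizontal axis); shading marks positions over 100 kb from both genes and colours mark the adjusted p. Losses sit in the shaded parts beside Cxcr4, Smim20 and 4933430N04Rik and gains in those beside Gm7967 and Gm18003, while the shaded regions next to Kdr are all below 0 with none called at 0.001.

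The remaining gains were each the only far region of their stretch called at an adjusted p under 0.001. Several of them were very far from protein-coding genes. A region on chromosome 8 at 44344028 to 44344311, 588.9 kb from Fat1, the gene of a large cadherin, had no other region within 355.4 kb and stood at 3.65 (adjusted p = 3.81e-06) per the authors' deposited table. On the same chromosome the region from 49946665 to 49947535, 424.3 kb from the teneurin gene Tenm3 and 261.5 kb from any other region, stood at 3.20 (adjusted p = 8.85e-05) per the authors' deposited table. On chromosome 1 the region from 56168161 to 56168431, 414.0 kb from Plcl1, a phospholipase C-like gene, stood at 3.08 (adjusted p = 5e-06) per the authors' deposited table. Between Snx16 and Ralyl the region on chromosome 3 from 11357705 to 11357923 stood at 2.93 (adjusted p = 5.39e-05) per the authors' deposited table. That at chromosome 12, 94409387 to 94409601, 348.1 kb from any gene and so the farthest of the gains, stood at 2.32 (adjusted p = 3.83e-04) per the authors' deposited table. On chromosome 13 from 90359847 to 90360547, 245.3 kb from Tmem167, a region stood at 2.19 (adjusted p = 2.89e-04) per the authors' deposited table. Towards Ndufa4, on chromosome 6 from 11108401 to 11108882, one stood at 2.07 (adjusted p = 5.93e-04) per the authors' deposited table. Between the homeobox genes Irx5 and Irx6 the region on chromosome 8 from 92483065 to 92483731 stood at 1.76 (adjusted p = 9.26e-04) per the authors' deposited table; it was named after its values were seen.

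The blood regulator list, 60 genes for stem cell, myeloid and lymphoid factors and receptors, had 17 members that were the nearest protein-coding gene on a side of a far region. These 144 far regions held 0 gains and 0 losses at the authors' threshold, against 0.656% and 0.605% of all far regions. At an adjusted p under 0.05 they held 3 gains (2.08%) and 12 losses (8.33%), against 3.63% and 4.74% of all far regions. Of the 12 losses 7 were those between Kit and Kdr. Their median log2 fold change was -0.11. Beside Mef2c, a transcription factor gene of lymphoid and myeloid progenitors, 19 far regions lay 534.4 to 1238 kb away and ranged from -1.79 to 0.50. Those next to Klf4, a factor gene of monocytes, numbered 18 at 208.9 to 602 kb, with a median of -0.55 and 2 losses at 0.05. The 17 next to Myc, the proliferation factor gene, lay 392.4 to 572.2 kb from it with a median of 0.016, 1 gain and 0 losses at 0.05. For Zeb2 and Satb1, lymphoid and myeloid factor genes, the 17 and 11 far regions lay 827.9 to 3572 kb and 413.8 to 635.4 kb away. They had 0 changes at 0.05, with medians of 0.20 and -0.050. Sets of this size are too small to set 0 apart from the shares of all far regions.

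Most stretches with far regions held few of them, with a median of 2. Of all far regions, 3.63% had a gain and 4.74% a loss at an adjusted p under 0.05. Against these shares the counts below are too small to set the fullest stretches apart. The 1982 regions lay in 572 stretches between genes, 224 of which held 1, while 64 stretches with 8 or more held 840. Only 19 stretches had a changed far region, and 5 of them had 2 or more. Among far regions 0 stretches had both a gain and a loss, while the Cxcr4 stretch also held a gain nearer to that gene. The fullest held 28 far regions over 1219 kb between Lcorl and Slit2 on chromosome 5, with a median of 0.30, none called at 0.05 and values from -1.28 to 1.23 per the authors' deposited table. The next, 27 towards Trps1 on chromosome 15 and 26 between Nox3 and Arid1b on chromosome 17, had medians of -0.34 and 0.016 and 0 regions called at 0.05. Of the 22 in the stretch before Zfat on chromosome 15, 3 had losses at 0.05, as had 3 of 18 between Pard3 and the neuropilin gene Nrp1 on chromosome 8. Of the 22 before Ndufa4 on chromosome 6, 1 rose, the gain at 11108401 given above, and at 0.05 there were 2 gains and 1 loss. Between Cntn3 and Chl1, 21 far regions had 2 gains and 2 losses at 0.05, and before Adgrl2 18 had 0 and 2. The 17 before Kcnj16 and the 17 before Tent5a had 0 gains and 0 losses at 0.05, with medians of -0.33 and -0.27.

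The most open far regions were not among the changed ones. The highest log2 abundance, 4.89, was at chromosome X, 170880865 to 170881084, past the last gene of the table used, Asmt, with a log2 fold change of -0.034 (adjusted p = 0.999) per the authors' deposited table. At only 219 bp wide it was narrower than the median far region. The next, on chromosome 14 from 36316417 to 36317674, with an abundance of 4.03, stood at -1.0 (adjusted p = 0.391) per the authors' deposited table. That on chromosome 5 from 4529918 to 4531790, 223.0 kb from the Wnt receptor gene Fzd1, stood at -0.44 (adjusted p = 0.246) per the authors' deposited table. Between the cadherin genes Cdh10 and Cdh12 the region from 19856858 to 19857923 on chromosome 15 stood at -0.38 (adjusted p = 0.733) per the authors' deposited table. The 3 farthest regions from any gene, 622.5 to 635.7 kb away, lay together between Cdh6 and Cdh9 on chromosome 15 at -0.061, 0.55 and -0.12 per the authors' deposited table. The widest after that near 4933430N04Rik were 3240 bp on chromosome 3, at -0.80, and 2667 bp on chromosome 13, at 1.17 per the authors' deposited table. The lowest fold change of any far region, -4.30 at chromosome X, 11174085 to 11174266, was not called (adjusted p = 0.00201) per the authors' deposited table.

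Within the far regions the median was higher at greater distance. For the 1544 regions at 100 to 200 kb the median log2 fold change was 0.026, with 10 gains (0.648%) and 11 losses (0.712%). The 425 at 200 to 500 kb had a median of 0.28, with 3 gains (0.706%) and 1 loss (0.235%). Of all regions 1.24% rose and 1.22% fell. The 13 beyond 500 kb had a median of 0.54 and 0 of either, too few regions for a share to be read. The median abundances of these classes, from nearest to farthest, were -1.92, -2.02 and -2.19, and the part of abundance in this order was not tested.

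Chromosomes 2 and X had the lowest medians in far regions as in all regions. On 7 of 20 chromosomes the far median and the median of all regions lay on opposite sides of 0. On each of these 7 the far quartiles also lay on both sides of 0, and on chromosome 13 the medians were only 0.022 and -0.0018. The far median was above 0 on 15 of 20 chromosomes, and that of all regions on 14. Chromosome X had the lowest far median, -0.81 over 40 regions against -0.45 for all its regions, and chromosome 2 followed with -0.51 over 124 against -0.56. Neither held a changed far region, while 3.42% of all regions of chromosome 2 fell. Chromosome 19, with 15 far regions, had the highest median, 0.58 against 0.13 for all its regions. On chromosomes 4 and 8 the far median lay below 0, at -0.11 and -0.011, against 0.12 and 0.23 over all their regions. On chromosome 3 it was 0.38 against -0.045.

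**Figure D4:**
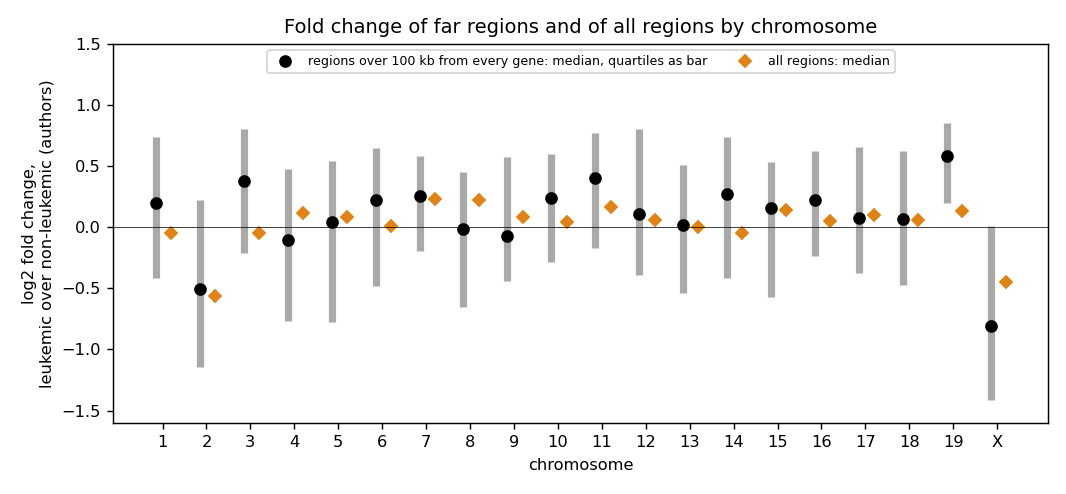
The authors' log2 fold change by chromosome, with black points for the median of regions over 100 kb from every gene, bars for their quartiles and diamonds for the median of all regions. Chromosomes 2 and X lie lowest in far and in all regions, at far medians of -0.51 and -0.81.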

How the data were processed

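ATAC-seq libraries of sorted marrow cells were compared by the authors, leukemic against non-leukemic. Per the submitters' processing notes, GRCm38 (mm10), Bowtie2 2.4.1, SAMtools 1.10.2 and Genrich 0.6 were used; the title of the deposited table names csaw, and no source used here gives its settings, filters or normalization. The authors' deposited table gives per region a log2 fold change, a log2 average abundance (both read from column position and range), a p-value and its adjusted p-value, and Benjamini-Hochberg adjustment of the deposited p-values returned the adjusted ones to within 2.39e-15. The deposited lists of changed and unchanged regions equal the table at adjusted p-values under 0.001 and over 0.9. Coordinates are as deposited.

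Gene extents were those of 49997 RefSeq genes (GRCm38.p6); a gene absent from it would make a region seem far. Distances ran from region centres. Named were the 10 highest and 10 lowest changed far regions, the 5 most abundant, the 3 farthest and the 3 widest. The 2 nearest the threshold on each side, the 10 fullest stretches and those with 2 or more changed far regions were named too. Kit was taken further from the gene list after its values were seen. The members and lists were chosen with earlier results of these data known. Depth is unknown; no error between mice, replicate check or test across mice was possible, and intervals are over regions only. Distances and counts were tested on simulated data. Python 3.11.15, numpy 2.4.6 and pandas 2.3.3 were used. The alternatives were other thresholds, distances, gene sets, chromosomes and an abundance filter.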

Additional observations from a re-analysis of the deposited data

How the results depend on the processing

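No paired analysis was possible because the table holds 1 value per region for all mice, and leaving out a replicate was not run for the same reason. The planned search for motifs in far regions was left out, as it needs genome sequence that was not used. Unknown depth limits every fold. Of the recomputed counts, shares and medians 23 stayed within 1.5 times the count or within an interval over regions, and 15 moved. This tally does not measure stability, because counts depend on the threshold and on the size of the set. The interval for the share that rose, 31.3 to 72.2%, treats regions as independent, though 11 changed ones lay in 5 stretches. The 23 include 4 settings chosen after the data were seen. Distance from the nearest edge, leaving out chromosome 2 and leaving out chromosome X each kept 13 gains and 12 losses. With adjusted p under 0.05 there were 72 gains and 94 losses, and under 0.0001 there were 5 and 2. Regions over 50 kb from every gene gave 39 gains, 44 losses and a median log2 fold change of -0.035, below 0, over 5896 regions. Those over 200 kb gave 3 gains, 1 loss, 75% gains and a median of 0.28 over 438. Distance from protein-coding genes alone gave 116 gains, 139 losses and a median of -0.093 over 14454. A log2 abundance of at least -1 left 344 regions with 11 gains (3.20%) and 12 losses (3.49%), now above the 2.44% and 2.65% of all such regions, and a median of -0.61, against 0.0034 for all such regions. Thus the sign of the median over all far regions rests on weakly open regions and on the distance chosen. The median of the most abundant far regions ran from -0.96 to -1.14 over 4 settings chosen after the data were seen, against -1.06.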
